A study of Mus musculus with 103 samples.

Results

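The genes described are the 7 that copy, write or guard DNA methylation among those measured in single mouse 2-cell embryos: the maintenance genes Dnmt1 and Uhrf1, the de novo genes Dnmt3a, Dnmt3b and Dnmt3l, and the imprint guards Zfp57 and Zfp445. They were chosen by name, and all 7 were present among 7894 genes in the expression table and entered every test. FVB embryos were made by intracytoplasmic sperm injection (ICSI), the placing of a sperm or a sperm head straight inside an oocyte, and were collected 28 hours later for RNA sequencing of each embryo by itself. Oocyte donors ate a Control diet throughout. Sperm came from the rete testis, the outlet of the testis, or from the cauda, the end of the epididymis that holds mature sperm. Embryos made with sperm heads numbered 23 from rete sperm of males on a Low Protein (LP) diet, 22 from rete sperm of Control males, 17 from cauda sperm of LP males and 20 from cauda sperm of Control males. Embryos made with whole sperm numbered 12 from rete and 9 from cauda sperm, and the diet of those donors is given as Control in the file header only. Fathers and injection days are not labelled, and since embryos may share them, a p-value measures only the spread between embryos.

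DNMT1 copies methylation onto the new strand after replication, and UHRF1 recognises hemimethylated DNA and brings DNMT1 to it. DNMT3A and DNMT3B add methylation to unmethylated sites, and DNMT3L, which has no catalytic activity, stimulates them in germ cells. After fertilization most inherited methylation is lost as the embryo divides, while imprinted regions keep theirs, guarded by the KRAB zinc-finger proteins ZFP57 and ZFP445, which recruit a silencing complex built on TRIM28. The oocyte stores RNA for several of these proteins, and in the mouse that maternal RNA is cleared around the 2-cell stage while the embryo's own genome becomes active.

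Values are CPM, read counts scaled to a common library size. A lower CPM can reflect less RNA of that gene or more RNA of other genes in the embryo, and these cannot be told apart. Depth ran from 587709 to 6058308 reads in whole-sperm embryos and from 529863 to 4788734 reads in head embryos, with medians of 3295885 and 1104924, so 1 read was worth between 0.165 and 1.887 CPM. All 9 of 9 markers of the 2-cell embryo and all 7 of 7 oocyte-derived markers were in the table. Cumulus markers were there for 3 of 7 genes, sperm and spermatid markers for 2 of 8, and epididymal and testicular somatic markers for 1 of 5 each. Rete LP embryo 11 had the fewest genes at 1 CPM or more (6095, against a median of 7690 over all embryos) and was low for several of the 7 genes. Rete LP embryos 20 and 21 (r = 0.973 over all genes) and 22 and 23 (r = 0.945) resembled each other more than any other pair. They were kept as separate embryos, and near-identical libraries were averaged as an alternative setting.

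Expressed per kilobase of transcript, Zfp57 stood at the top of the 7 genes and Dnmt3b at the bottom. The median over 103 embryos was 238 CPM per kb for Zfp57, 85.3 for Uhrf1, 52.8 for Dnmt3l, 23.7 for Dnmt1, 18.3 for Dnmt3a, 8.58 for Zfp445 and 3.44 for Dnmt3b. Zfp57 was above Uhrf1 in 101 of 103 embryos, so their order was nearly the same in every embryo. Neighbours lower in the order changed places more often: Uhrf1 was above Dnmt3l in 82 of 103 embryos, Dnmt3l above Dnmt1 in 80, Dnmt1 above Dnmt3a in 70, Dnmt3a above Zfp445 in 82 and Zfp445 above Dnmt3b in 75. The order of Dnmt1 and Dnmt3a depends on the length taken, as Dnmt3a transcripts run from 5424 to 9685 bases and 8737 was used. In plain CPM the median over 103 embryos was 127 for Dnmt1 and 159.9 for Dnmt3a. The lower part of the order differed by preparation as a description. In whole-sperm embryos Dnmt1 was above Dnmt3a in 9 of 21, against 61 of 82 head embryos, and Zfp445 was above Dnmt3b in 8 of 21, against 67 of 82. The imprint guards were far apart, with Zfp57 above Zfp445 per kilobase in 103 of 103 embryos.

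Dnmt1 (chr9:20907206-20959888, mm10), the maintenance methyltransferase, had similar CPM in all 6 groups. Its lowest, median and highest embryos were 37.1, 143 and 242 CPM in rete LP heads, against 30.0, 134 and 279 CPM in rete Control heads. Cauda LP heads gave 60, 113 and 223 CPM, against 16.3, 144 and 306 CPM in cauda Control heads. Whole-sperm embryos gave 71.5, 107 and 237 CPM for rete and 33.2, 109 and 350.2 CPM for cauda sperm. The groups overlapped widely, and the medians lay within 107 to 144 CPM. The row for Dnmt1 adds up several transcripts, so RNA begun at the starts used in oocytes and in somatic cells could not be separated.

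Uhrf1 (chr17:56303337-56323486), the partner that brings DNMT1 to replicated DNA, varied more between embryos and between groups. It had 9.19, 294 and 686 CPM in the lowest, median and highest rete LP head embryo, against 35.4, 335 and 1572 CPM in rete Control heads. Cauda LP heads gave 101, 168 and 377 CPM, against 44.2, 199.8 and 682 CPM in cauda Control heads. Rete whole-sperm embryos gave 315, 626 and 1188 CPM and cauda whole-sperm embryos 109, 588 and 644 CPM. Medians were thus highest with whole sperm, intermediate with rete heads and lowest with cauda heads, while the single embryos overlapped. The lowest rete LP value was that of embryo 11.

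Dnmt3a (chr12:3801559-3914443), a de novo methyltransferase stored in the oocyte, was the steadiest of the 7 genes. Its medians were 157 CPM in rete LP heads, 154 in rete Control heads, 149 in cauda LP heads, 158 in cauda Control heads, 191 in rete whole-sperm and 178 in cauda whole-sperm embryos. Within head groups it had an SD of 0.65 on the log2(CPM + 1) scale, and 12.6% of 2366 genes of like level (within a factor of 2 in mean CPM) varied less. Apart from rete LP embryo 11, at 5.64 CPM, the head embryos ran from 79.2 to 317 CPM.

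Dnmt3b (chr2:153649411-153687730), the other de novo methyltransferase, had few reads in head embryos. Its medians were 14.2 CPM in rete LP heads, 19.2 in rete Control heads, 13 in cauda LP heads, 11 in cauda Control heads, 19.7 in rete whole-sperm and 16.7 in cauda whole-sperm embryos. The median head embryo held 15 reads of it, so counting error was large there, and the median whole-sperm embryo held 52. No read was found in 1 rete Control head, 2 cauda Control head and 1 rete whole-sperm embryo. The highest value was 106 CPM, in a rete LP head embryo.

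Dnmt3l (chr10:78042287-78063622), the catalytically inactive cofactor, was low and variable with heads and higher with whole sperm. Its lowest, median and highest embryos were 2.71, 65.0 and 320.3 CPM in rete LP heads, against 22.6, 83.1 and 236 CPM in rete Control heads. Cauda LP heads gave 13.9, 60.7 and 109.8 CPM, against 4.56, 60.1 and 199.7 CPM in cauda Control heads. Rete whole-sperm embryos gave 133, 201 and 309.7 CPM and cauda whole-sperm embryos 95.4, 171 and 303 CPM. Each whole-sperm embryo was above the median of the Control head embryos of its source, 12 of 12 for rete and 9 of 9 for cauda, but the ranges overlapped.

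Zfp57 (chr17:37001163-37010729), the imprint guard known for its maternal effect in the mouse, was at 222 CPM or more in every embryo. Its lowest, median and highest embryos were 222, 352 and 1006 CPM in rete LP heads, against 261, 494 and 2122 CPM in rete Control heads. Cauda LP heads gave 239, 452 and 1174 CPM, against 257, 476 and 1924 CPM in cauda Control heads. Rete whole-sperm embryos gave 338, 829 and 1935 CPM and cauda whole-sperm embryos 238, 962 and 5979 CPM. Rete LP heads had the lowest median of the 6 groups, and 19 of their 23 embryos were below the rete Control median, although the groups overlapped.

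Zfp445 (chr9:122848910-122886851), the second imprint guard, ran the other way. Its lowest, median and highest embryos were 1.67, 55.1 and 189.8 CPM in rete LP heads, against 3.09, 54.6 and 192 CPM in rete Control heads. Cauda LP heads gave a median of 83.3 CPM with a highest value of 159 CPM and no read in 1 embryo, against 3.82, 82.7 and 198 CPM in cauda Control heads. Rete whole-sperm embryos gave 1.33, 26.9 and 81.9 CPM and cauda whole-sperm embryos 3.51, 19.7 and 36.2 CPM. All 9 cauda whole-sperm embryos were below the cauda Control head median. Zfp445 was also the most variable of the 7 genes within head groups (SD 1.42 on the log2 scale), and 84.2% of 3312 genes of like level varied less.

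**Figure D1:**
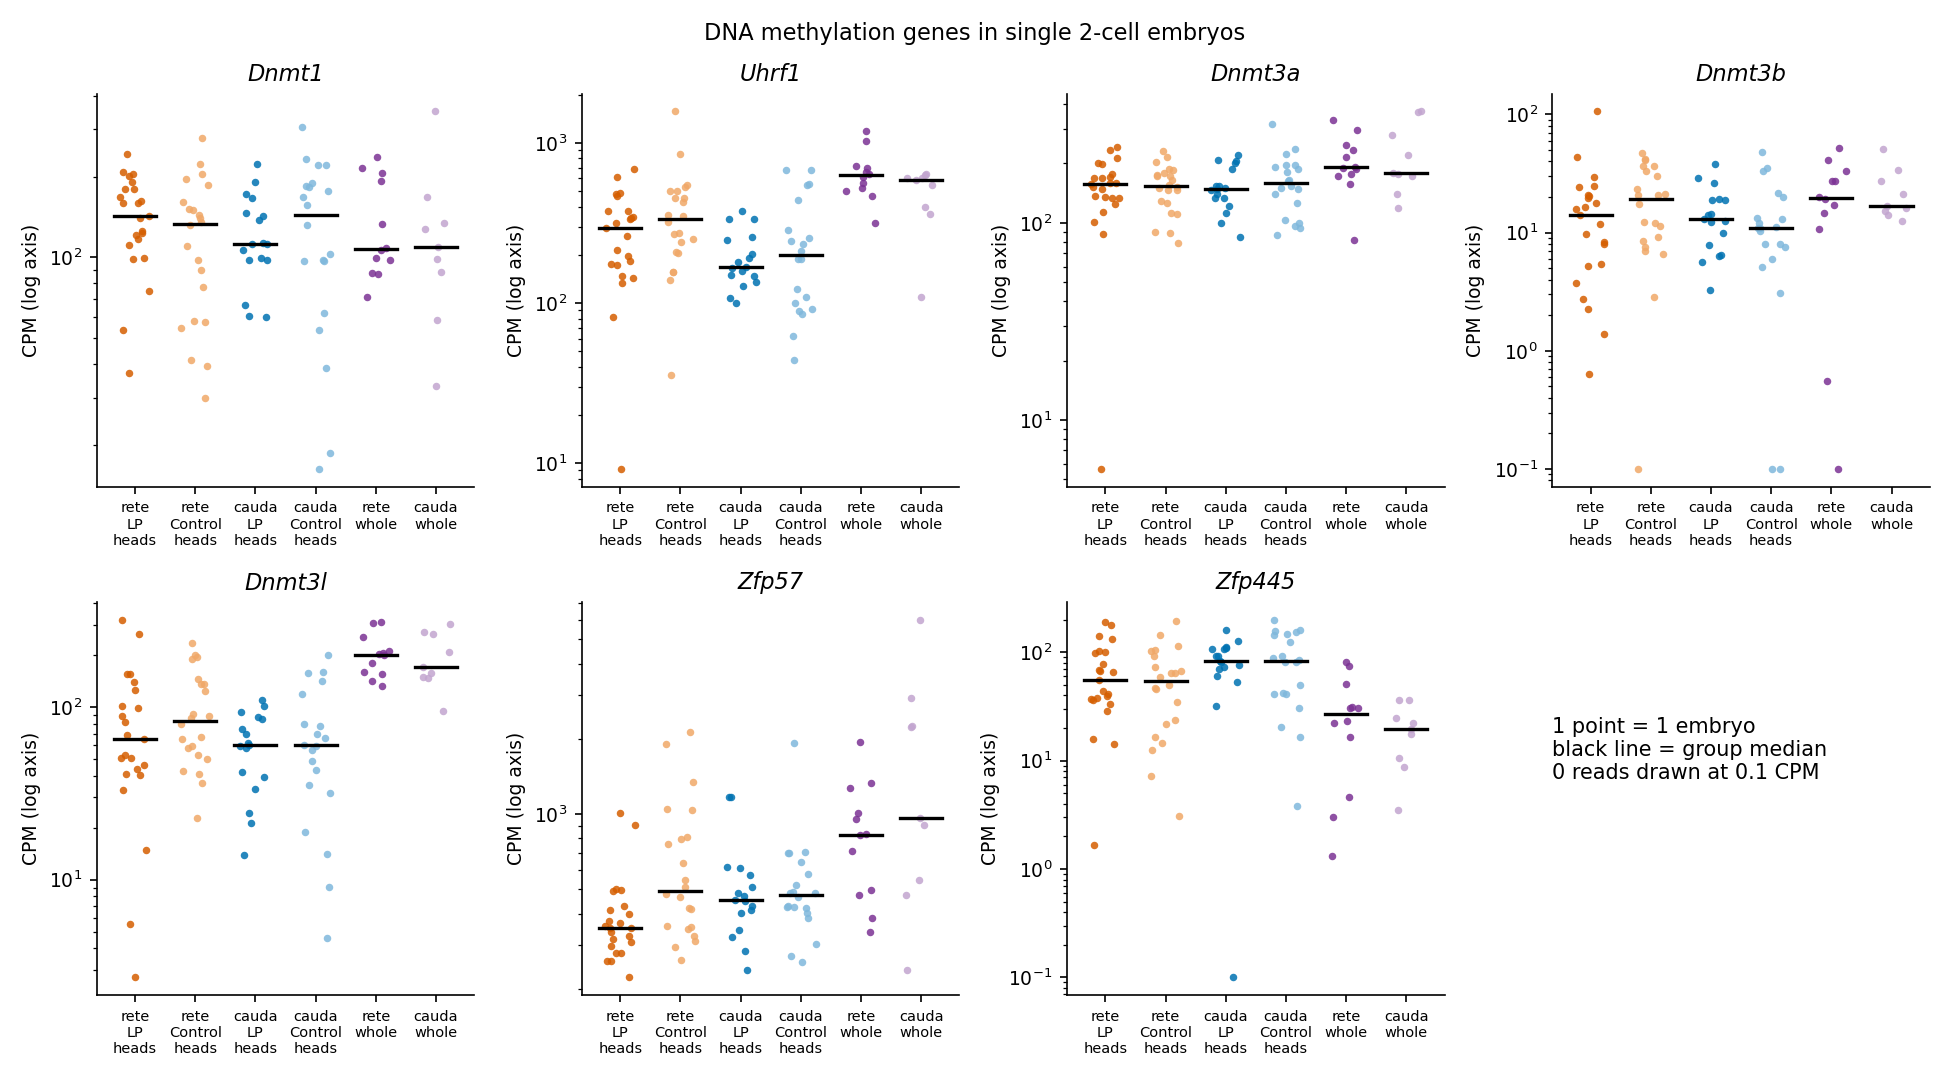
CPM (log axis) of each of the 7 genes in every embryo, by group; black lines are group medians and embryos with no read are drawn at 0.1 CPM. Dnmt3l sits higher and Zfp445 lower with whole sperm than with heads, and the 6 medians of Dnmt1 lie between 107 and 144 CPM.

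The first question of the design was whether the father's diet alters these transcripts. In embryos made with rete heads, 0 of 7 genes passed the threshold (limma, Benjamini-Hochberg adjusted p under 0.05 over all genes), where 1.49% of all genes did (118 of 7894, and 1809 at an unadjusted p under 0.05), 0.393% higher and 1.1% lower. That direction depends on rete LP embryo 11 and on the scaling. Without the embryo 9.99% of all genes passed, 533 higher and 256 lower, in place of 31 and 87. With it kept, median-of-ratios scaling gave 151 higher and 132 lower, and quantile normalization 143 and 149. Zfp57 came closest, with a log2 fold change of -0.63 ± 0.20 (SE, LP over Control, on the log2(CPM + 1) scale, as below; limma p = 0.00286, adjusted p = 0.0779). The other 6 genes ran from -0.49 ± 0.35 for Dnmt3l to 0.31 ± 0.25 for Dnmt1. Differences that were not called are bounded by their intervals: the approximate 95% interval was -1.03 to -0.23 for Zfp57, -1.03 to 0.20 for Uhrf1 and -0.53 to 0.27 for Dnmt3a. Embryo 11 weighs on several of these: without it Dnmt3a was 0.07 ± 0.14, on the other side of 0, Uhrf1 -0.21 ± 0.28, Dnmt3l -0.31 ± 0.33 and Zfp445 0.44 ± 0.39, none of them called.

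Whether Zfp57 was called depended on which embryos entered. Without rete LP embryo 11, in which few genes were detected, its size hardly moved but it passed (-0.61 ± 0.21, limma adjusted p = 0.044), in a fit that called 789 genes in place of 118. In 9 head embryos the mean of a list of 63 ribosome biogenesis genes was far below the rest, and 6 of them were rete Control and 1 was rete LP. Without those 9 embryos, a setting chosen after seeing the data, the log2 fold change of Zfp57 was -0.37 ± 0.19 (limma adjusted p = 0.648). When the fit also held a stage index per embryo, which is the ribosome biogenesis mean minus the mean of 45 maternal transcripts, it was -0.28 ± 0.17 (limma adjusted p = 0.499).

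In embryos made with cauda heads, 0 of 7 genes passed, beside 0% of all genes (0 of 7894 by limma, 163 at an unadjusted p under 0.05, and 0 to 14 over the other settings). Zfp57 was -0.04 ± 0.23 and Dnmt1 was 0.09 ± 0.28. The largest was Dnmt3b, at 0.40 ± 0.43 with an approximate 95% interval of -0.44 to 1.24. The widest interval was that of Zfp445, from -0.89 to 0.90. The diet difference in rete heads minus that in cauda heads was tested directly, and 0 of 7 genes passed where 0.19% of all genes did (15 of 7894). For Zfp57 this interaction was -0.59 ± 0.31 (limma p = 0.0572, adjusted p = 0.553), so its diet values with rete and cauda heads were not shown to differ.

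The second question was whether sperm that had not passed through the epididymis gave embryos with other levels. For rete over cauda, 0 of 7 genes passed in LP heads, in Control heads or with whole sperm. The background shares were 0.076% in LP heads (6 of 7894), 0.038% in Control heads (3 of 7894) and 0% with whole sperm (0 of 7782 by limma, 662 at an unadjusted p under 0.05, and 0 under each other setting). Uhrf1 had a positive log2 fold change in each, at 0.34 ± 0.34 in LP heads, 0.70 ± 0.32 in Control heads (limma p = 0.0341, adjusted p = 0.202) and 0.47 ± 0.29 with whole sperm. Its level was above the cauda median in 18 of 23 rete LP, 18 of 22 rete Control and 7 of 12 rete whole-sperm embryos. Dnmt3l in Control heads was 0.69 ± 0.37 (adjusted p = 0.249) and Zfp445 was -0.59 ± 0.43 (adjusted p = 0.401). Dnmt3a was within 0.14 log2 units of 0 in each of these comparisons.

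**Figure D2:**
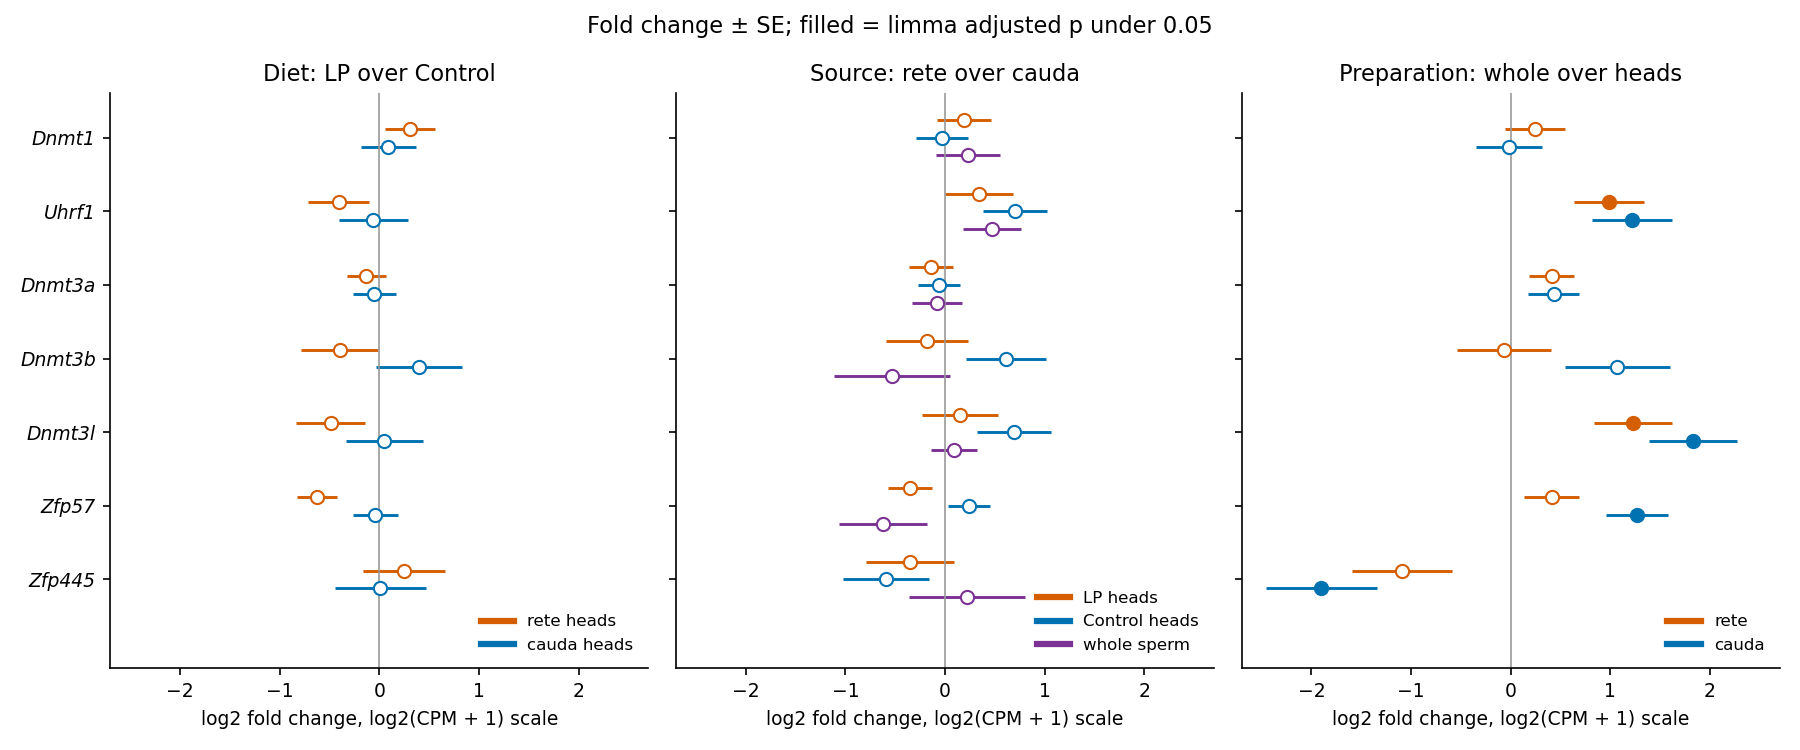
Log2 fold change (x axis, log2(CPM + 1) scale) ± SE of each gene (y axis) for diet, source and preparation; filled circles passed a limma adjusted p under 0.05. Filled circles appear in the preparation panel alone, where 4 genes passed with cauda and 2 with rete sperm.

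Whole sperm was set against heads of Control males within each source. With cauda sperm Uhrf1, Dnmt3l and Zfp57 rose and Zfp445 fell, while Dnmt1, Dnmt3a and Dnmt3b did not pass. Of the 7 genes 3 were higher, where 24.4% of all genes were, and 1 was lower, where 34.3% were. In all 4 of 7 passed beside 58.7% of all genes (4634 of 7894), which is near the background. Dnmt3l was 1.83 ± 0.44 (limma adjusted p = 0.000249), Zfp57 1.27 ± 0.31 (adjusted p = 0.000371), Uhrf1 1.22 ± 0.40 (adjusted p = 0.00642) and Zfp445 -1.90 ± 0.56 (adjusted p = 0.00257). Zfp57 was above the cauda Control head median in 8 of 9 whole-sperm embryos, and without the highest of them, embryo 4, it was 0.98 ± 0.31 (limma adjusted p = 0.00585). Dnmt3a (0.43 ± 0.26, adjusted p = 0.146) and Dnmt3b (1.07 ± 0.53, adjusted p = 0.0719) passed under other scalings, with Dnmt3a at 0.67 ± 0.21 and Dnmt3b at 1.32 ± 0.50 after quantile normalization (limma adjusted p = 0.00415 and 0.0164) and at 0.61 ± 0.23 and 1.23 ± 0.52 after median-of-ratios scaling (adjusted p = 0.0179 and 0.0326).

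With rete sperm Uhrf1 (0.99 ± 0.35, limma adjusted p = 0.0247) and Dnmt3l (1.23 ± 0.39, adjusted p = 0.012) rose, and 5 of 7 genes did not pass, among them Zfp57 (0.41 ± 0.28, adjusted p = 0.244) and Zfp445 (-1.09 ± 0.50, adjusted p = 0.0774). Without the 9 head embryos of low ribosome biogenesis mean, of which 6 were rete Control, Zfp57 (0.65 ± 0.27, limma adjusted p = 0.035), Zfp445 (-1.45 ± 0.49, adjusted p = 0.00872) and Dnmt3a (0.46 ± 0.18, adjusted p = 0.023) passed too. Calls over all genes rose there as well, to 56.3% (4444 of 7894). With all embryos, the 2 of 7 higher stand beside 14.1% of all genes higher, and 0 of 7 lower beside 19.5% lower, with 33.6% of all genes called (2654 of 7894). Dnmt1 was 0.24 ± 0.30 with rete and -0.02 ± 0.33 with cauda sperm. The difference between the sources in the effect of preparation was not called for any of the 7 genes, where 0.861% of all genes were (68 of 7894), 0.836% higher and 0.0253% lower. The largest in the log2 scale were Dnmt3b (-1.14 ± 0.71) and Zfp57 (-0.86 ± 0.42, limma adjusted p = 0.26).

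Whole-sperm embryos were treated as prepared and sequenced apart from head embryos, so any difference between those runs moved together with preparation. Depth and the stage lists moved with it too, and these cannot be told apart here. The median of the ribosome biogenesis mean, in log2(CPM + 1), was 4.71 in rete and 4.36 in cauda whole-sperm embryos, against 6.73 in rete and 7.21 in cauda Control heads. The median of the maternal mean was 8.26 in both whole-sperm groups, against 7.93 in rete and 7.51 in cauda Control heads. Markers of other cells moved too with cauda sperm: of 3 cumulus markers 1 was higher (Serpine2, 224 ± 152 CPM in whole-sperm embryos, against 62.1 ± 67.2 CPM in Control heads) and 2 were lower (Amhr2, 19.6 ± 23.8 CPM, against 174 ± 84.5 CPM, and Gja1; SD, n = 9 and 20, limma). The 1 measured testicular somatic marker, Gata4, was lower (-1.75 ± 0.63, limma adjusted p = 0.0137), as was 1 of 2 sperm markers, Ldhc (-2.85 ± 0.56, adjusted p = 1.35e-05), and their part in the results was not tested. These calls stand beside 58.7% of all genes called with cauda sperm. With rete sperm 0 of 3 cumulus, 0 of 2 sperm and 0 of 1 testicular somatic markers passed, beside 33.6% of all genes. Once the stage index entered the fit, 0 of 7 genes passed with either source. The same fit called 9.89% of all genes with cauda sperm (781 of 7894) and 10.5% with rete sperm (828 of 7894). The log2 fold change was then 0.30 ± 0.31 for Zfp57 with cauda sperm.

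Among head embryos of the same group the 7 genes varied together in part. Over 82 embryos, with group means removed from log2(CPM + 1), 12 of 21 pairs passed (two-sided permutation within groups, 100000 resamples, adjusted over 21 pairs), 10 with positive and 2 with negative r. The share of all gene pairs that would pass was not computed, so the count is not shown to be particular to these genes. Outside the 7, Tbc1d14 reached r = 0.88 with Uhrf1. Uhrf1 went with Dnmt3l (r = 0.63, rho = 0.62, permutation p = 1e-05 for each, the smallest that the resamples can give, and adjusted p = 0.00021), and r without the 2 embryos farthest out in Uhrf1 was 0.62. Within groups this r was 0.83 in rete LP, 0.37 in rete Control, 0.22 in cauda LP and 0.66 in cauda Control heads. Uhrf1 also went with Dnmt3a (r = 0.62, rho = 0.43, permutation p = 2e-05 and 0.0001, adjusted p = 0.00021 and 0.000525), and r was 0.43 without rete LP embryo 11 and 0.40 without the 2 embryos farthest out. Dnmt1 and its partner Uhrf1 were more loosely tied (r = 0.38, rho = 0.32, permutation p = 0.00076 and 0.00593, adjusted p = 0.00266 and 0.0138), with r of 0.42, 0.24, -0.05 and 0.58 in rete LP, rete Control, cauda LP and cauda Control heads.

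The imprint guards went in opposite directions. Zfp57 and Zfp445 had r = -0.45 and rho = -0.48 over the 82 head embryos (permutation p = 5e-05 and 2e-05, adjusted p = 0.00035 and 0.00021), and r was -0.41 without the 2 embryos farthest out in Zfp57. It was negative in each head group, at -0.30 in rete LP, -0.56 in rete Control, -0.51 in cauda LP and -0.42 in cauda Control heads. Embryos rich in Zfp57 RNA were thus often poor in Zfp445 RNA. In the 21 whole-sperm embryos none of the 21 pairs passed, with 3 at an unadjusted permutation p under 0.05, and Zfp57 with Zfp445 had r = -0.21 and rho = -0.26 (permutation p = 0.295 and 0.232, adjusted p = 0.689 and 0.608).

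**Figure D3:**
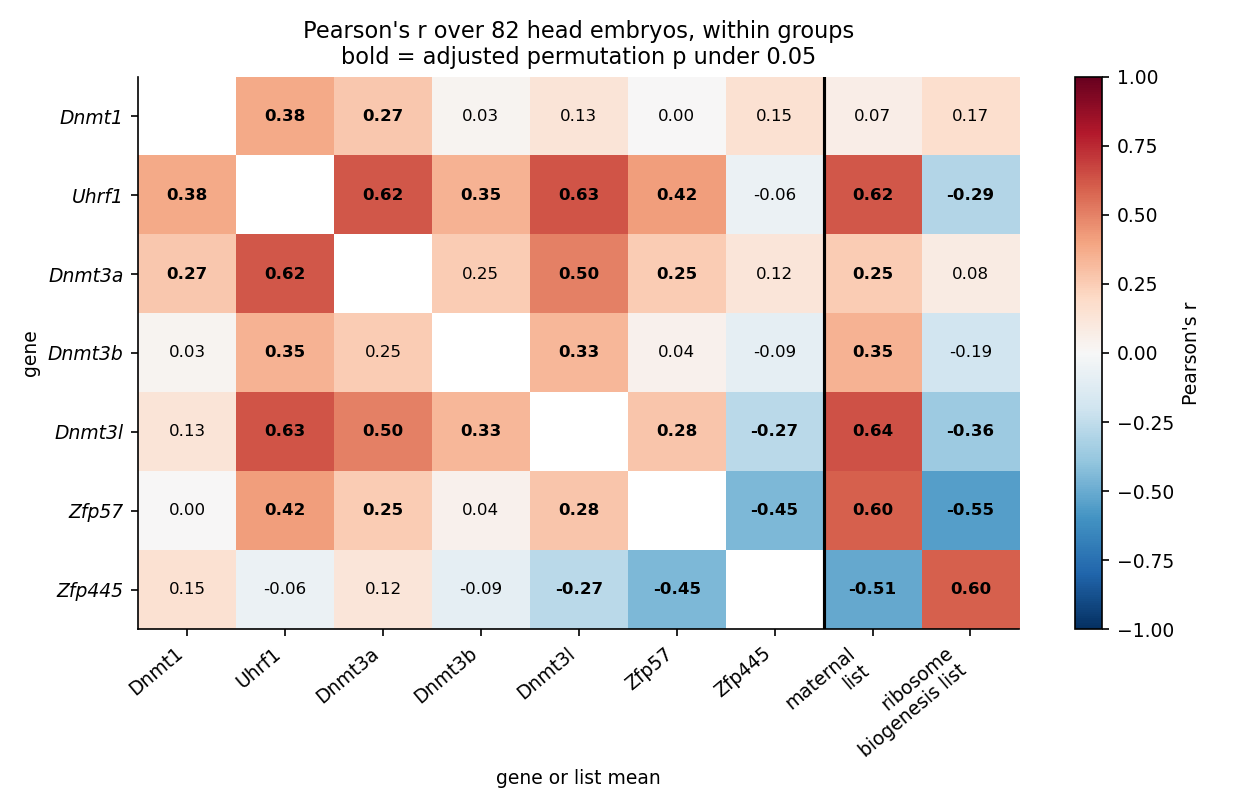
Pearson's r over 82 head embryos, with group means removed, between the 7 genes and between each gene (rows) and the means of the maternal and ribosome biogenesis lists (right of the black line); bold values passed an adjusted permutation p under 0.05. Uhrf1 and Dnmt3l form the strongest pair and Zfp57 with Zfp445 the most negative.

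Set beside the stage lists, 10 of 14 relations passed in head embryos (adjusted over 14). How many of all genes would pass with these lists was not computed, so this count too is not shown to be particular. Higher maternal means went with more Dnmt3l (r = 0.64, rho = 0.71), Uhrf1 (r = 0.62, rho = 0.73) and Zfp57 (r = 0.60, rho = 0.54) and with less Zfp445 (r = -0.51, rho = -0.61), each with a permutation p of 1e-05, the smallest that the resamples can give, and adjusted p of 3.5e-05 for r and 2e-05 for rho. Without the 2 embryos farthest out in the maternal mean, r was 0.63, 0.60, 0.57 and -0.50 for these 4 genes. Their signs were the same in each of the 4 head groups. For Zfp57 the maternal r was 0.57 in rete LP, 0.71 in rete Control, 0.38 in cauda LP and 0.66 in cauda Control heads. Zfp445 rose with the ribosome biogenesis mean (r = 0.60, rho = 0.68, permutation p = 2e-05 and 1e-05, adjusted p = 4.67e-05 and 2e-05) and Zfp57 fell with it (r = -0.55, rho = -0.46, permutation p = 2e-05 for each, adjusted p = 4.67e-05 and 3.5e-05). Without the 2 embryos farthest out in that mean, r was 0.59 for Zfp445 and -0.58 for Zfp57. The r of Zfp57 with it was -0.06 in rete LP heads, against -0.66 in rete Control heads, and -0.56 in cauda LP heads, against -0.75 in cauda Control heads. Rete LP embryo 11 had a ribosome biogenesis mean of 3.73, against a group median of 7.11, with 278 CPM of Zfp57. Without that embryo r over the head embryos was -0.61, and its part in the rete LP value was not tested. Dnmt1 passed with neither mean (r = 0.07 and 0.17, rho = 0.02 and 0.17, permutation p = 0.58 and 0.143 for r, adjusted p = 0.58 and 0.167). Its r with the maternal mean differed in sign between groups, at 0.54 in rete LP heads, against -0.36 in rete Control heads, and -0.35 in cauda LP heads, against 0.36 in cauda Control heads. The maternal and ribosome biogenesis means were themselves related (r = -0.76 over the 82 embryos, a description), so the relations are not separate facts. In whole-sperm embryos 0 of 14 relations passed, with 1 at an unadjusted permutation p under 0.05.

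**Figure D4:**
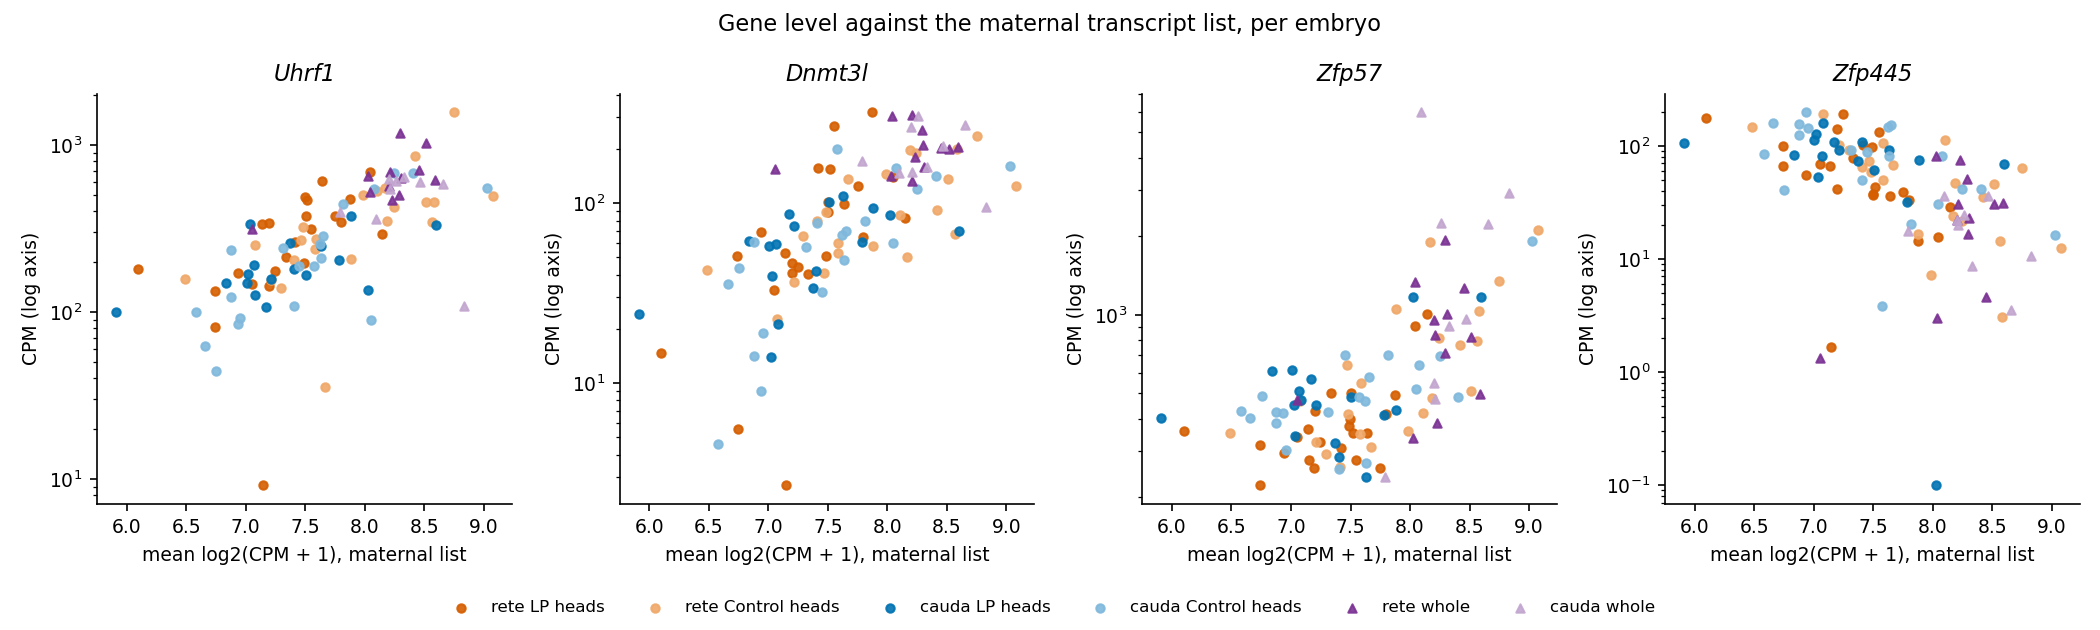
CPM (log axis) of Uhrf1, Dnmt3l, Zfp57 and Zfp445 against the mean log2(CPM + 1) of 45 maternal transcripts in each embryo; circles are head and triangles whole-sperm embryos, and no read is drawn at 0.1 CPM. Uhrf1, Dnmt3l and Zfp57 climb with the maternal mean among head embryos and Zfp445 declines.

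Depth and detected genes also moved with some of these genes. Uhrf1 rose with the number of genes at 1 CPM (r = 0.58, rho = 0.42, permutation p = 2e-05 and 0.00012, adjusted p = 0.00028 and 0.00168), with r of 0.38 without rete LP embryo 11 and 0.34 without the 2 embryos farthest out. Dnmt3a had r = 0.65 with it but rho = 0.21 (permutation p = 0.00213 and 0.0645, adjusted p = 0.00994 and 0.181), and r was 0.20 without embryo 11, so that relation rests on it. Dnmt1 fell with log2 reads in head embryos (r = -0.27, rho = -0.29, permutation p = 0.00671 and 0.00707, adjusted p = 0.0235 and 0.033) and rose with the number of genes at 1 CPM (r = 0.37, rho = 0.40, permutation p = 0.00051 and 0.00026, adjusted p = 0.00357 and 0.00182), with r of -0.27 and 0.42 without the 2 embryos farthest out. Zfp57 did not follow the number of detected genes (r = 0.02, rho = 0.02, permutation p = 0.839 and 0.881, adjusted p = 0.903 and 0.942). The part of depth in the relations between genes was not tested.

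The genes whose pattern over the 82 head embryos was most like each of the 7 were found by r among genes with a mean of at least 10 CPM, as a description. Uhrf1 was nearest to Tbc1d14 (r = 0.88), Glis3 (0.83) and Plekhg1 (0.82), and Dnmt3l to Sap130 (0.83), Camk2g (0.82) and Galm (0.80). Zfp57 was nearest to Slc30a3 (0.64), Fabp5 (0.63) and Uchl1 (0.63), and Zfp445 to Nol6 (0.77), a gene on the ribosome biogenesis list, Ddias (0.75) and Ssc4d (0.75). Dnmt3a was nearest to Scap (0.78), AU040320 (0.75) and Zfp592 (0.75), which had r of 0.46, 0.37 and 0.48 without the 9 embryos of low ribosome biogenesis mean. Dnmt1 was nearest to Sec16a (0.67), Ubr4 (0.65) and Atxn1l (0.64), and Dnmt3b to Lrrcc1 (0.58), Cobll1 (0.57) and Uso1 (0.51).

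The promoters of the pair that went together, Uhrf1 and Dnmt3l, and of the pair that went in opposite directions, Zfp57 and Zfp445, are shown because CpG sites are what the methylation machinery acts on. Windows of 300 bases, from 250 before to 50 after a transcript start, came from RefSeq on GRCm38.p6 (mm10), for all 7 genes with 16 windows. For each gene the window with the most CpG is printed 5′ to 3′ on the gene's strand, with each CG in capitals.
Uhrf1, chr17:56304063-56304362, plus strand: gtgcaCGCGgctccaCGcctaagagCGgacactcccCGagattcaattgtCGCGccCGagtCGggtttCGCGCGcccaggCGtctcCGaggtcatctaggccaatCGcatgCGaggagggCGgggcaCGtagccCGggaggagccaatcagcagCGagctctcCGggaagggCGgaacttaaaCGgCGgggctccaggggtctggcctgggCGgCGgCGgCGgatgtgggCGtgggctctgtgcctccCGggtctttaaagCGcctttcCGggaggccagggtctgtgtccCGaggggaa
Dnmt3l, chr10:78042037-78042336, plus strand: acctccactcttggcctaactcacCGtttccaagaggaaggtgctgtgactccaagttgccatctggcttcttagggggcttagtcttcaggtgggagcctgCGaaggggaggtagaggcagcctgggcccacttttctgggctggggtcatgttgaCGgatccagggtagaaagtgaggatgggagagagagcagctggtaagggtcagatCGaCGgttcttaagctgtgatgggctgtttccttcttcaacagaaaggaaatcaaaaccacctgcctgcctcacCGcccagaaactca
Zfp57, chr17:37002275-37002574, plus strand: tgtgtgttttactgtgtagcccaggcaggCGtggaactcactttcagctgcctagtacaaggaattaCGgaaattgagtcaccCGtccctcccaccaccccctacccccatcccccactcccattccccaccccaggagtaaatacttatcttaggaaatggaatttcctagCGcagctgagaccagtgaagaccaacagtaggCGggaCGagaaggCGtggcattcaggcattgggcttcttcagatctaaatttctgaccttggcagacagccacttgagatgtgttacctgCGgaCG
Zfp445, chr9:122865957-122866256, minus strand: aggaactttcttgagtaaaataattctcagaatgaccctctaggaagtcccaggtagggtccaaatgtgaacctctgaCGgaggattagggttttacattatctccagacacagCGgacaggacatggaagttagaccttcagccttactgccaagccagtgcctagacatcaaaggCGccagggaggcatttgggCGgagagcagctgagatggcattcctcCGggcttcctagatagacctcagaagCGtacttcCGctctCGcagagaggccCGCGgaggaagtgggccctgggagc
The Uhrf1 window holds 33 CpG, and 91.4% of 32851 windows over all genes hold fewer, against a median of 7. The Dnmt3l window holds 6 (43.6% hold fewer), that of Zfp57 holds 9 (54.2%) and that of Zfp445 holds 10 (56.5%), so the windows printed for Uhrf1 and Dnmt3l did not share a CpG content. These are the richest windows of their genes, while the background holds every window. The other Uhrf1 window holds 12 (60.4%), and which start the embryos use was not tested. The only Zfp445 start used, 122866006, lies inside the span given above for that minus-strand gene (to 122886851). The letters TGCCGC, which ZFP57 is known to bind when methylated, were searched on both strands and stand in 2 of the 16 windows, both of them overlapping windows of Dnmt3a, and in 11.6% of all windows.

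The other genes of the pathway were read from 5 lists. For diet in rete heads 3 of their 54 measured genes passed, each of them lower (5.56%), beside 1.49% of all genes (1.1% lower). Of 12 measured methylation cofactors and UHRF1 regulators (of 16 listed), 0 passed for diet in rete heads, and the gene of smallest p was Mat2a, which makes the methyl donor (0.93 ± 0.34, limma adjusted p = 0.103). The median log2 fold change of the list was 0.02, beside -0.03 over all genes. Of 15 measured genes of the KRAB zinc-finger silencing complex and its partners (of 16), 1 was lower and 14 did not pass, with a median of 0.24. That gene was Suv39h2, a histone H3 lysine 9 methyltransferase, with 43.8 ± 20.5 CPM in rete LP heads, against 85.7 ± 41.7 CPM in rete Control heads (SD, n = 23 and 22; log2 fold change -1.02 ± 0.23, limma adjusted p = 0.0141). It was also called in the interaction of diet with source (-1.56 ± 0.34, limma adjusted p = 0.0141), with 71.3 ± 27.5 CPM in cauda LP heads, against 49.5 ± 20.7 CPM in cauda Control heads (SD, n = 17 and 20; limma).

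Beside the same 1.1% of all genes lower for diet in rete heads, 1 of 12 other genes with a reported effect on imprint upkeep was lower. The other 11 did not pass, and the list had a median of -0.02. It was Ooep, an oocyte-stored gene of the subcortical maternal complex (-0.90 ± 0.25, limma adjusted p = 0.0401), and 5 of these 12 genes are also on the maternal list. Of 12 measured imprinted genes (of 27), 1 was lower and 11 did not pass, with a median of -0.25. It was Gnas, which encodes the stimulatory G protein alpha subunit (-1.36 ± 0.35, limma adjusted p = 0.0278). Of 3 measured methyl-CpG readers (of 8), 0 passed, and Mbd3 had the smallest p (-0.66 ± 0.37, limma adjusted p = 0.266). In the same comparison the oocyte histone gene H1foo (-1.17 ± 0.31, limma adjusted p = 0.0304) and the cumulus marker Serpine2 (-1.39 ± 0.36, adjusted p = 0.0304) were lower, as 1 of 7 oocyte-derived and 1 of 3 cumulus markers, and their part in the list results was not tested. The other cumulus markers had positive log2 fold changes that did not pass, 1.22 ± 0.54 for Amhr2 (limma adjusted p = 0.168) and 0.76 ± 0.44 for Gja1 (adjusted p = 0.281). Without the 9 embryos of low ribosome biogenesis mean Suv39h2 (-0.69 ± 0.22, limma adjusted p = 0.305), Ooep (-0.75 ± 0.26, adjusted p = 0.392) and Gnas (-0.83 ± 0.34, adjusted p = 0.54) no longer passed, nor did Suv39h2 in the interaction (-1.20 ± 0.32, adjusted p = 0.0783). Without the close rete LP embryos 20 to 23 Suv39h2 still passed, while Ooep (adjusted p = 0.0586) and Gnas (adjusted p = 0.0649) did not. None of the 3 passed when the stage index entered the fit (limma adjusted p = 0.0798 for Suv39h2, 0.281 for Ooep and 0.288 for Gnas) or when only the rete head groups were fitted (0.0764, 0.083 and 0.0543), and with weights per embryo Gnas alone did (0.0444). Calls over all genes for diet in rete heads also fell from 1.49%. They were 0.595% with the stage index, 0.177% with the rete head groups alone, 0.557% with weights and 0.165% without the 9 embryos. Summed cumulus markers had a median of 285 CPM in rete LP heads (7.31 to 381), against 252 CPM in rete Control heads (133 to 446), and the ranges overlapped.

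For diet in cauda heads no gene of these 5 lists passed, and the genes of smallest p in 4 of them had log2 fold changes of 0.54 ± 0.26 for Suv39h2, -0.70 ± 0.33 for Mbd4, 0.83 ± 0.47 for Impact and -0.73 ± 0.44 for Cdca7. In the interaction of diet with source Suv39h2 was the only gene of the 5 lists that passed, and the smallest p elsewhere was that of Gnas (-1.81 ± 0.52, limma adjusted p = 0.158), Ooep (-1.16 ± 0.37, adjusted p = 0.247), Cdca7 (1.74 ± 0.60, adjusted p = 0.331) and Mbd4 (0.98 ± 0.45, adjusted p = 0.522). For source no list gene passed in LP heads, where Lig1, Suv39h2, Ooep, Snurf and Mbd3 had the smallest p of their lists, from 1.47 ± 0.42 for Lig1 to -1.65 ± 0.60 for Snurf. None passed in Control heads, where these were Gnas (1.30 ± 0.36), Smarcad1 (-1.16 ± 0.34), Mat2a (-1.12 ± 0.35), Naa10 (-1.10 ± 0.40) and Mbd4 (-0.71 ± 0.31). None passed with whole sperm either, where they were Nlrp14 (0.66 ± 0.26), Cbx5 (0.65 ± 0.31), Nlrp4f (0.57 ± 0.34), Zbtb33 (0.93 ± 0.63) and Peg3 (-0.62 ± 0.43).

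For whole sperm against heads with cauda sperm, 26 of the 54 measured genes of the 5 lists passed (48.1%, 9 higher and 17 lower), beside 58.7% of all genes (24.4% higher and 34.3% lower), so their share is not above the background. Of the silencing complex 3 genes were higher, 8 lower and 4 not passed, with a median of -0.88 beside -0.08 over all genes. Sumo2, a small protein modifier (-3.07 ± 0.51, limma adjusted p = 3.12e-07), and the heterochromatin protein gene Cbx3 (-2.48 ± 0.48, adjusted p = 9.09e-06) led the falls, and Suv39h2 (1.17 ± 0.31, adjusted p = 0.00083) and Cbx1 (0.93 ± 0.40, adjusted p = 0.0395) the rises. The call of Cbx1 was lost without cauda whole-sperm embryo 5 (0.68 ± 0.41, limma adjusted p = 0.145), embryo 4 (adjusted p = 0.05) or embryo 7 (adjusted p = 0.0565). Trim28, the scaffold that ZFP57 and ZFP445 recruit, had 86.2 ± 66.7 CPM in cauda whole-sperm embryos, against 220 ± 106 CPM in cauda Control heads (SD, n = 9 and 20; -1.53 ± 0.44, limma adjusted p = 0.0021). It was added outside the rule for names because the guards act through it.

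Against the same 58.7% of all genes, of the 12 cofactors 1 was higher, Cdca7l (1.20 ± 0.38, limma adjusted p = 0.00501), 3 were lower and 8 did not pass, with a median of -0.43. Mat2a (-2.41 ± 0.44, adjusted p = 2.96e-06) fell, and so did Dppa3, a maternal factor that keeps UHRF1 off chromatin (-1.44 ± 0.28, adjusted p = 7.36e-06). Of the other imprint genes 4 were lower and 8 did not pass, with a median of -0.14, led by Naa10 (-2.25 ± 0.52, adjusted p = 0.000165) and Arid4a (-1.44 ± 0.35, adjusted p = 0.000372), and of the readers 1 was lower, Mbd4 (-1.29 ± 0.43, limma adjusted p = 0.00794), a call lost without cauda whole-sperm embryo 5 (-0.87 ± 0.43, adjusted p = 0.0715). Of 12 imprinted genes 5 were higher, where 24.4% of all genes were, 1 lower, where 34.3% were, and 6 not passed, with a median of 0.58, among them Gnas (1.73 ± 0.43, limma adjusted p = 0.000441), Mest (1.19 ± 0.35, adjusted p = 0.00246) and Igf2r (-2.58 ± 0.82, adjusted p = 0.00543).

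With rete sperm 4 of the 54 list genes passed (7.41%, all of them lower), beside 33.6% of all genes (19.5% lower). Dppa3 was lower among the cofactors (1 of 12, -1.49 ± 0.25, limma adjusted p = 5.93e-06), with 1170 ± 656 CPM in rete whole-sperm embryos, against 3040 ± 1400 CPM in rete Control heads (SD, n = 12 and 22; limma). Sumo2 (-1.73 ± 0.45, adjusted p = 0.00253) and Cbx5 (-0.68 ± 0.26, adjusted p = 0.0372) were lower among 15 genes of the silencing complex, and 1 of the 12 other imprint genes was lower. No imprinted gene (Snrpn nearest, 1.67 ± 0.83, adjusted p = 0.107) and no reader (Mbd3 nearest, 0.54 ± 0.44, adjusted p = 0.331) passed. In the difference between sources no list gene passed, and the smallest p in each list was that of Mat2a (1.59 ± 0.59), Cbx3 (1.56 ± 0.65), Naa10 (1.80 ± 0.70), Mbd4 (1.12 ± 0.58) and Gnas (-1.62 ± 0.58). When the stage index entered the fit, 1 of the 26 called list genes still passed with cauda sperm and 1 of 4 with rete sperm. Both times it was Dppa3, at -1.16 ± 0.31 (limma adjusted p = 0.0094) with cauda and -1.36 ± 0.25 (adjusted p = 9.81e-05) with rete sperm. Calls over all genes fell too with the stage index, to 781 with cauda sperm, in place of 4634, and to 828 with rete sperm, in place of 2654. As with the 7 genes, preparation, separate sequencing, depth and stage cannot be told apart in these comparisons.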

How the data were processed

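Per the labels' protocols, embryos were frozen in lysis buffer and sequenced after a Nextera preparation. Bowtie and mm10 are named in the submitters' processing notes. Which versions, counter and strand setting were used is not given in the sources used here. A table of 7894 genes was deposited by the authors, and its values are read here as CPM because low values in an embryo are multiples of a common step. Of low values (under 60 reads) a median of 86.4% were whole reads (79.9 to 89.1%, tolerance 0.001 reads), too few for a count test. Depth was recovered from that step. Zeros are written as 0.1 (2.49% of values). Column headers matched the labels for all 103 embryos, and 1 column that belongs to no sample was not used.

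Tests used limma 3.58.1 in R 4.3.3 (trend, robust, two-sided, Benjamini-Hochberg) on log2(CPM + 1) for genes that reached 5 CPM in at least 9 embryos. The 4 head groups were fitted together, the whole-sperm groups alone, and all 6 groups for preparation. The limma fit was checked on simulated counts of known change. Correlations used Python 3.11.15, numpy 2.4.6 and pandas 2.3.3. Lengths are medians over GENCODE M21 transcripts matched by RefSeq accession. Genes named beside the 7 are the 3 of highest r per gene with a mean of at least 10 CPM and, of each list, up to 2 per direction of smallest p past the threshold, or the gene of smallest p; 1 gene that this rule names is not reported here. The 7 genes and the lists were chosen with earlier results of these data known. Replicate numbers did not pair embryos.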

Additional observations from a re-analysis of the deposited data

Results flagged for a closer look

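In cauda whole-sperm embryos Dnmt1 reached 350.2 CPM in embryo 7, far above the other 8, which ran down to 33.2 CPM with a group median of 109 CPM. The gap to the next embryo was 0.576 of the range of the group. Without embryo 7 the log2 fold change of Dnmt1 for whole sperm over Control heads was -0.24 ± 0.34 (limma adjusted p = 0.567), against -0.02 ± 0.33 with it.

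Zfp57 reached 5979 CPM in cauda whole-sperm embryo 4, with a group median of 962 CPM, and the gap was 0.533 of the range. Without that embryo its log2 fold change was 0.98 ± 0.31 (limma adjusted p = 0.00585), against 1.27 ± 0.31. The 7 genes were examined in this group alone, as the other groups hold more than 10 embryos. Gaps were taken on CPM, where values are skewed, so the nominal rate of about 1 in 20 flagged by chance need not hold. Gaps on the log2 scale were not tested.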

How the results depend on the processing

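Counts of the 7 genes past the limma threshold stayed within 1.5 times the count reported in 128 alternative results and moved further in 6. The 6 were diet in rete heads, with 1 of 7 (Zfp57) without embryos of few detected genes and 1 of 7 without rete LP embryo 11 alone, in place of 0, and whole sperm over Control heads. With cauda sperm that gave 0 once the stage index entered the fit, in place of 4. With rete sperm it gave 5 with weights per embryo, 5 without embryos of low ribosome biogenesis mean and 0 with the stage index, in place of 2. The shares over all genes moved too. In the order given they were 10.3% and 9.99% for diet, in place of 1.49%, and 9.89% with cauda sperm, in place of 58.7%. With rete sperm they were 55.6%, 56.3% and 10.5%, in place of 33.6%. The settings were pseudocounts of 0.1 and 5, filters, quantile and median-of-ratios scaling, the groups fitted, weights per embryo, the stage index as a covariate, the replicate number as a block, near-identical libraries averaged and embryos left out. In each comparison other than whole sperm over Control heads the reported count was 0, so most of the 128 are 0 that stayed 0. The filter settings changed the genes tested only for source with whole sperm.

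Over all genes the calls ran from 13 to 810 for diet in rete heads (118 reported), from 13 to 74 for the interaction with source (15), from 0 to 260 for source in LP heads (6) and 1 to 17 in Control heads (3), from 781 to 5463 for preparation with cauda sperm (4634) and 828 to 4444 with rete sperm (2654), and from 0 to 267 for the interaction of source with preparation (68). Quantile normalization moved the median of all genes from -0.08 to 0.24 with cauda sperm and the split to 2776 higher and 2351 lower, in place of 1929 and 2705.

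The r of Dnmt3a with Zfp445 (0.12 reported) was -0.32 under quantile normalization and -0.27 without embryos of few detected genes. Its r with the ribosome biogenesis mean (0.08) was -0.44 under quantile normalization, -0.29 under median-of-ratios scaling, -0.31 without embryos of few detected genes and -0.27 without embryos of low ribosome biogenesis mean. Embryos of the same replicate number in different head groups did not deviate together (106 pairs, median r 0.0065, 37 over 0.1), so the numbers do not pair embryos. With the replicate number as a block 6 of 7 genes passed for whole sperm over Control heads with cauda sperm, adding Dnmt3a at 0.62 and Dnmt3b at 1.36, and Zfp445 with rete sperm was called, at -1.31 (limma adjusted p = 0.0426). The block fit called 59.9% of all genes with cauda and 33.4% with rete sperm.
Of 26 pathway list genes called for preparation with cauda sperm, 20 passed without cauda whole-sperm embryo 5, 23 without embryo 4, 23 without embryo 7 and 24 without cauda Control head embryo 19.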
